A study of Homo sapiens with 4 samples.

Results

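The keratins KRT7, KRT8, KRT18 and KRT19 of luminal epithelium and the keratins KRT5, KRT14, KRT15 and KRT17 of basal epithelium were examined together with TP63, in the accessible chromatin of LNCaP cells and of enzalutamide-resistant LNCaP cells. These 9 genes, 4 luminal and 5 basal, were taken by name from the 20033 protein-coding genes of the RefSeq annotation of GRCh38. LNCaP is an androgen-responsive human prostate cancer cell line with a luminal character. Its resistant counterpart, which the labels call LNCaP-resistance, carries the genotype label "resistance cells" and the treatment label enzalutamide, an antiandrogen drug, whereas the parental cells are labelled WT and have no treatment label. According to the study's methods, resistant sublines were grown from LNCaP cells adapted to charcoal-stripped serum and then given stepwise higher drug doses, so that the serum history and the drug cannot be told apart. Neither source says whether the resistant line is 1 clone or whether replicates came from separate cultures. ATAC-seq, in which a transposase inserts adapters into open DNA, was run on 2 libraries of each.

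Keratins form the intermediate filaments of epithelial cells as pairs of a type I and a type II protein. In the prostate, luminal secretory cells carry mainly the pair of KRT8 and KRT18, whereas basal cells carry KRT5 and KRT14, and their identity depends on the transcription factor p63, the product of TP63. Type II genes, such as KRT5, KRT7 and KRT8, lie in a cluster on chromosome 12, and type I genes lie in a cluster on chromosome 17, except for KRT18, which is next to KRT8. Loss of basal cells and of p63 staining is a diagnostic feature of prostate adenocarcinoma.

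For each library, the data are a list of peak summits, which are the positions of highest signal in a called peak, and a score per summit. The LNCaP lists held 117245 and 107344 summits and the resistant lists 70866 and 45618 summits. The lists hold no read counts, so sequencing depth is unknown and a summit that is missing from a shorter list may be missing for lack of reads. Scores were therefore ranked within their own list. The percentile of a summit gives how much of its list, in percent, scored no higher, and a gene with no summit was set to 0. Scores themselves are not comparable between lists, since they depend on depth. The window of a gene was its body with 10 kb on either side. Because 2 libraries against 2 can reach no two-sided exact permutation p below 0.333, no test was made, and a difference is set against the pooled SD between replicates. The prostate luminal genes KLK3, KLK2, FOXA1 and HOXB13, used as a check of the label, had a summit in all 4 libraries, but so did most of the genes of other cell types looked at, such as PTPRC of leukocytes and CDH5 of endothelium. Summits near a marker therefore did not separate cell types here.

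The annotated starts of 3 of the 9 genes were in the RefSeq promoter table of GRCh38.p14. The 250 bases before these starts are shown because they set a luminal gene beside the 2 basal genes that define the lineage. They lie at chr12:52926470-52926719 on the minus strand (KRT8), chr12:52520395-52520644 on the minus strand (KRT5) and chr3:189631139-189631388 on the plus strand (TP63). Capitals mark matches to the p53-family half-site and the CCAAT box (CCAAT), on either strand.
KRT8: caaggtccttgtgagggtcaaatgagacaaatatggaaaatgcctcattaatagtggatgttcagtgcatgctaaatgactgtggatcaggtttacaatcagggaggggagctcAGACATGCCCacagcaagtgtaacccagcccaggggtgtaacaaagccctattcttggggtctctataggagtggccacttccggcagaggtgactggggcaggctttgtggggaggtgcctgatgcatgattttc
KRT5: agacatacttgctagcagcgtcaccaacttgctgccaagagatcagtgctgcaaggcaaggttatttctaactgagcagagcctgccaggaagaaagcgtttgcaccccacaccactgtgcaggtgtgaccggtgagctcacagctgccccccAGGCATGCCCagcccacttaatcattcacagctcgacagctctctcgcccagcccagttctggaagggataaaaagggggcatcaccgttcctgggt
TP63: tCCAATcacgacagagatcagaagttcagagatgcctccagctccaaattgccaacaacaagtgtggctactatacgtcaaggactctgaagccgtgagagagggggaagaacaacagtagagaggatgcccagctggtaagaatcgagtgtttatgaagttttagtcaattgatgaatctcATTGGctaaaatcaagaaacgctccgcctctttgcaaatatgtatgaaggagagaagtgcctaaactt

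The half-site of the p53 family, to which p63 belongs, matched at AGGCATGCCC in KRT5 and at AGACATGCCC in KRT8, and 5.58% of 34943 promoters of the same length held a match. Of the 3 promoters, only that of TP63 matched the CCAAT box, which 32.04% of all promoters held. None of the 3 held TATAAA (10.8% of promoters), GGGCGG (42.5%), the AP-1 motif TGANTCA (6.59%) or the FOXA motif TGTTTAC (2.98%). GC content was 50.4% in KRT8, 56% in KRT5 and 44% in TP63, against a median of 58% over all promoters. A match is a description of the letters and not a binding site. The table gives 1 start per gene, and other starts, such as the internal start of TP63 from which basal cells make a shorter p63, were not examined.

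None of these 3 sequences held a summit in any library, which holds for the listed starts alone, since other starts were not examined. The nearest summit was far closer to the start at KRT8 than at KRT5 in every library. At TP63 it was nearly as close as at KRT8 in both LNCaP libraries and in one resistant library, but it ranked lower. At KRT8 the nearest summit was upstream of the start in every library, by 1048 bp and 991 bp in LNCaP and by 1053 bp and 1052 bp in resistant cells. It ranked high in every list, with percentiles of 94.2 and 95.5 for LNCaP and of 96.5 and 90.6 for resistant cells. At TP63 both LNCaP libraries had a weak summit upstream, 1375 bp and 1387 bp away, at percentiles 23.6 and 38.5. One resistant library had a summit 1156 bp upstream at percentile 4.67, and in the other the nearest summit was 81862 bp away. At KRT5 the nearest summit was 18851 bp and 13120 bp from the start in LNCaP and 24314 bp and 62809 bp from it in resistant cells. Thus no library had a summit within 10 kb of the start of KRT5.

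Among the luminal genes, KRT8 and KRT18 kept strong accessible sites in resistant cells, whereas KRT7 and KRT19 ranked lower there. The strongest summit of KRT8 had percentiles of 94.8 and 95.5 in LNCaP and of 96.5 and 95.7 in resistant cells. The groups did not overlap and differed by 0.952 percentile points, with a pooled SD of 0.511, near the top of the scale. In LNCaP replicate 2 this was the site near the start given above, and in the other libraries it was a site within KRT18. That site also lies at the higher-coordinate end of KRT8, with its last summit 55 bp above this end. KRT8 is on the minus strand, so this is the upstream end of its annotated body. At that KRT18 site the percentiles were 94.8 and 95.4 against 96.5 and 95.7. The strongest summit of KRT7, a keratin of simple and ductal epithelia, had percentiles of 61.9 and 70.6 in LNCaP and of 45.5 and 24.4 in resistant cells, which is a difference of -31.3 points where the replicates had a pooled SD of 11.4. KRT19, the smallest keratin, had the largest difference, with 48.9 and 71.9 in LNCaP, no summit in the first resistant library and 3.86 in the second. The mean for LNCaP was 60.4 ± 16.3 (SD, n = 2), and for resistant cells it was 1.93 ± 2.73 (SD, n = 2). The difference at KRT8 was 0.546 without LNCaP-resistance replicate 1, and the differences at KRT7 and KRT19 depended on the window, with -0.588 at KRT7 for 25 kb and -1.88 at KRT19 for 3 kb on either side. Hence both resistant libraries lay below both LNCaP libraries at 2 of the 4 luminal genes, where 41.1% of 18682 protein-coding genes with a summit did so. They lay above them at the other 2, where 16.7% did so. These 2, KRT8 and KRT18, take the same site in every library but LNCaP replicate 2, so they are not independent.

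Among the basal genes, TP63 and KRT15 ranked lower in both resistant libraries, and KRT5, KRT14 and KRT17 overlapped between the groups. The strongest summit of TP63 had percentiles of 87.6 and 89.99 in LNCaP and of 78.1 and 45.4 in resistant cells, which is a difference of -27.1 points with a pooled SD of 16.4. KRT15, a keratin of basal and progenitor cells, had 41.7 and 15.8 in LNCaP and 0 and 3.86 in resistant cells. The summits at 41.7 and 3.86 also lie in the window of KRT19. The difference at TP63 was -43.4 points without LNCaP-resistance replicate 1 and -10.7 points without replicate 2, and that at KRT15 was -13.9 points without LNCaP replicate 1. At KRT14, the type I partner of KRT5, the strongest summit stayed high, with 87.7 and 86.3 in LNCaP and 94.2 and 82.6 in resistant cells. That summit lies outside the gene and also in the window of KRT9, another keratin gene, which had the same percentiles. KRT17, a keratin of basal and stressed epithelium, had 59.8 and 13.8 in LNCaP and 60.6 and 0 in resistant cells, so its replicates differed more than its groups. These summits of KRT17 also lie in the window of KRT16. KRT5 had 1 summit in all, 7301 bp below the gene in LNCaP replicate 2, at percentile 51.7. The 2 of 5 basal genes that were lower are near the background of 41.1%, and no basal gene was higher. The median change was -25.9 points for the basal and -15.2 points for the luminal genes, and it was -2.31 points over all protein-coding genes with a summit. The basal median was that of KRT5, which rests on 1 summit. The median percentile of the basal genes, taken per library, had a pooled SD of 28.6 between replicates. The medians turned to 5.23 points for luminal and 1.93 points for basal genes with equal numbers of summits, the luminal median was 0.182 for windows of 25 kb, and the basal median was 0 for windows of 3 kb.

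**Figure D1:**
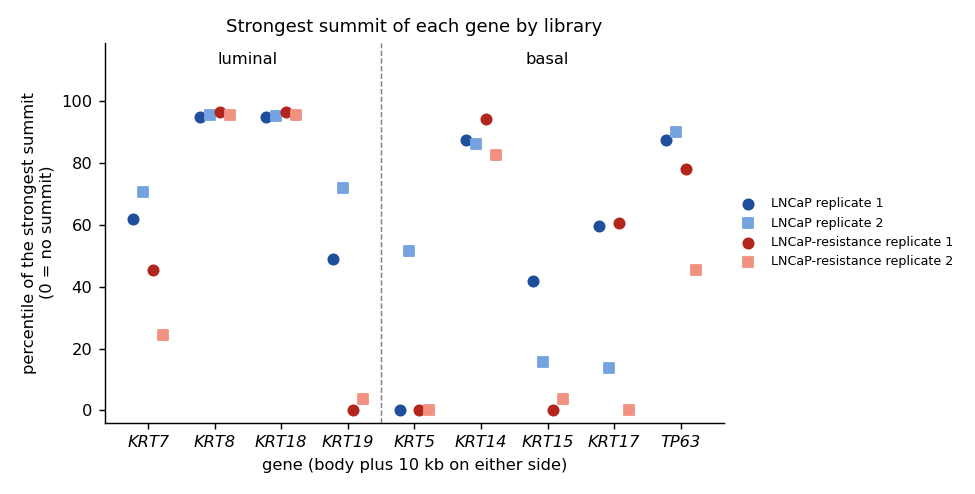
Percentile of the strongest summit (vertical axis, 0 where there was no summit) for each gene (horizontal axis), with 1 point per library. KRT8 and KRT18 sit between 94.8 and 96.5 in every library, KRT19 and KRT15 are at or below 3.86 in both resistant libraries, and the replicates of KRT17 lie far apart.

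When every list was limited to its 45618 highest-scoring summits, as many as the shortest list holds, protein-coding genes moved toward resistant cells by a median of 5.63 points. KRT8, KRT18 and KRT14 were then higher in both resistant libraries, as were 48.7% of protein-coding genes, with changes of 7.11, 7.23 and 18.7 points. TP63 was lower in this setting too, at 68.2 and 76.5 in LNCaP and 66.0 and 45.4 in resistant cells, a direction found for 18.5% of genes. KRT7 then overlapped between the groups with a change of 3.36 points, and KRT19 with one of -15.0 points. KRT5 had no summit left, and KRT15 kept only that of resistant replicate 2, which lies inside KRT19 and 8715 bp above KRT15. KRT17 kept summits in resistant replicate 1 alone, the strongest at percentile 38.7, so that its change turned to 19.4 points.

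KRT8 (chr12:52897191-52949860) and KRT18 (chr12:52948855-52952906) overlap at their ends in the annotation, so that they were described as 1 locus. The 12 regions of the KRT8 window, a region being a set of summits whose 250-bp extensions overlap, placed by its first or last summit, held 5 regions shared by all 4 libraries, 2 found in both LNCaP libraries and no resistant one, and 0 of the reverse kind. Of 150917 regions in all, 21.1% were shared, 27.5% LNCaP-only and 3.84% resistant-only, and in 47.6% the replicates of a group differed. The strongest site at the end of the locus, 1041 bp above the lower-coordinate end of KRT18, scored 49.1 and 43.3 in LNCaP and 97.5 and 58.4 in resistant cells. The strong site 30269 bp inside KRT8 scored 47.4 and 43.6 in LNCaP and 97.3 and 45.4 in resistant cells. Its percentiles, given above at the start of KRT8, overlapped between the groups. Scores are not comparable between lists, and the percentiles of the site at the end of the locus differed by only 1.00 point.

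Other KRT8 sites differed in both directions. The site below the gene, with its strongest summits 1192 to 1285 bp from the gene end, had percentiles of 48.6 and 48.9 in LNCaP and of 70.02 and 73.5 in resistant cells, so that it was higher by 23.03 points, with a pooled SD of 1.76. Another, 10787 bp inside the gene, went from 71.0 and 65.2 to 83.0 and 76.2, higher by 11.5 points with a pooled SD of 4.46. Of all shared regions, 17.7% were higher in both resistant libraries and 41.8% were lower. Between these, the site 7877 bp inside the gene was at 67.9 and 77.4 in LNCaP and at 84.5 and 54.1 in resistant cells, so the resistant replicates lay on either side of the LNCaP values. The largest difference was at the site 19280 bp inside the gene, with 57.2 and 39.1 in LNCaP and 2.51 and 0 in resistant cells, which is -46.9 points with a pooled SD of 9.15. Weaker sites at 6351 bp and 18638 bp were LNCaP-only, at mean percentiles of 26.7 and 31.5. With equal numbers of summits, the sites at 19280 bp, 6351 bp and 18638 bp had no summit left in any library. The site below the gene then had no summit left in LNCaP and was at 53.4 and 73.5 in resistant cells. Its difference of 63.5 points thus includes the loss of both LNCaP summits to the limit. The site at 10787 bp was at 25.5 and 18.1 in LNCaP and at 73.5 and 76.2 in resistant cells, higher by 53.1 points. In that setting 48.7% of protein-coding genes were higher by their strongest summit, which is a share of genes and not of sites. A site at the lower-coordinate end of KRT18, with summits from 21 bp outside to 202 bp inside the gene, was at 70.7 and 70.2 in LNCaP, at 62.7 in resistant replicate 1 and absent from resistant replicate 2, which has the shortest list.

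**Figure D2:**
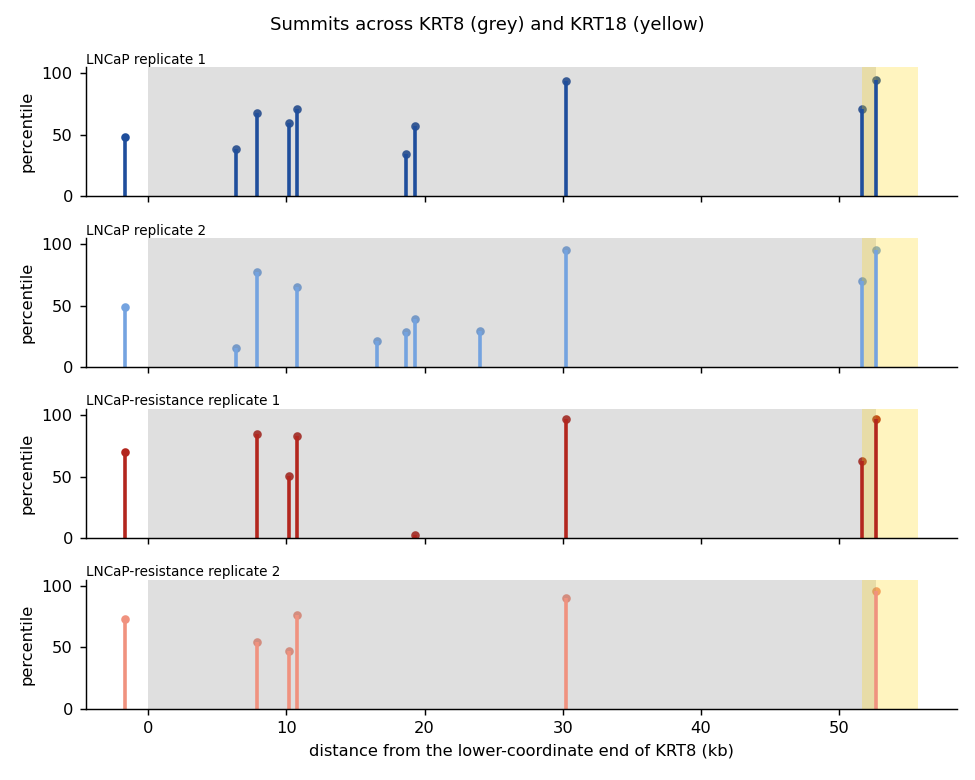
Percentile of the strongest summit of each region (vertical axis) against the distance from the lower-coordinate end of KRT8 (horizontal axis, kb), with 1 panel per library and the genes shaded. The 2 tallest sites, at percentiles of 90.6 or more, stand in all 4 panels, whereas the LNCaP-only sites inside KRT8 are low.

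KRT7 (chr12:52233243-52255853) had different sites near its lower-coordinate end in the full lists of the 2 groups. A site 1549 bp below the gene was at percentiles 59.1 and 67.4 in LNCaP and absent from both resistant libraries. By contrast, a weak site 130 bp below the gene was absent from both LNCaP libraries and at 17.2 and 9.76 in resistant cells. This was the only resistant-only region in the 9 windows, and its scores of 5.87 and 3.21 were low in their lists. With equal numbers of summits, the site at 1549 bp was left in LNCaP replicate 2 alone, at percentile 23.3. The site at 130 bp was then left in resistant replicate 2 alone, at 9.76, so neither site separated the groups. The strongest site in LNCaP, 10349 bp inside the gene, was shared. At KRT19 (chr17:41523617-41528308), no site was shared, and the strongest, 7909 bp above the gene, was LNCaP-only at percentiles 48.9 and 71.9. The windows of KRT19 and KRT15 overlap, and 2 regions, each found in 1 library, belong to both.

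TP63 (chr3:189596746-189897276) had the largest difference in number of summits among the 9 genes. It held 12 and 11 summits in LNCaP but only 3 and 1 in resistant cells. Summits were fewer in both resistant libraries at 47.3% of protein-coding genes and more numerous at 3.02%. The mean number in resistant cells was 0.174 of that in LNCaP, whereas the median ratio was 0.434 over the 2018 protein-coding genes with a mean of at least 10 summits in LNCaP, and 4.01% of these genes had a ratio as low as that of TP63. For KRT8 the ratio was 0.609. With equal numbers of summits the ratios were 0.375 for TP63 and 1.3 for KRT8, with 4 and 4 summits against 2 and 1 at TP63 and 5 and 5 against 7 and 6 at KRT8. Of the 13 regions of TP63, 7 were LNCaP-only, which is 53.8% against 27.5% of all regions, 1 was shared and 0 were resistant-only.

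The shared site of TP63 lay 116505 bp above its lower-coordinate end and had percentiles of 83.2 and 86.5 in LNCaP and of 78.1 and 45.4 in resistant cells. Both resistant values were lower, with a mean difference of -23.1 points and a pooled SD of 16.4. The strongest LNCaP site lay 9776 bp below the gene, at the edge of the window. Its scores of 35.6 and 33.0 put it at 87.6 and 89.99 in LNCaP, and it was at 44.6 in resistant replicate 1 and absent from resistant replicate 2. Around the shared site, LNCaP cells had a group of weaker sites at 114031 bp, 121548 bp and 125554 bp that neither resistant library held. Their percentiles in LNCaP ranged from 9.07 to 65.6. The LNCaP-only site 6789 bp above the gene had the closest replicates, at 65.05 and 64.3. With equal numbers of summits, 5 regions were left, of which 1 was LNCaP-only and 1 shared. Most LNCaP-only sites of TP63 thus scored below the 45618 strongest summits of a LNCaP list.

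**Figure D3:**
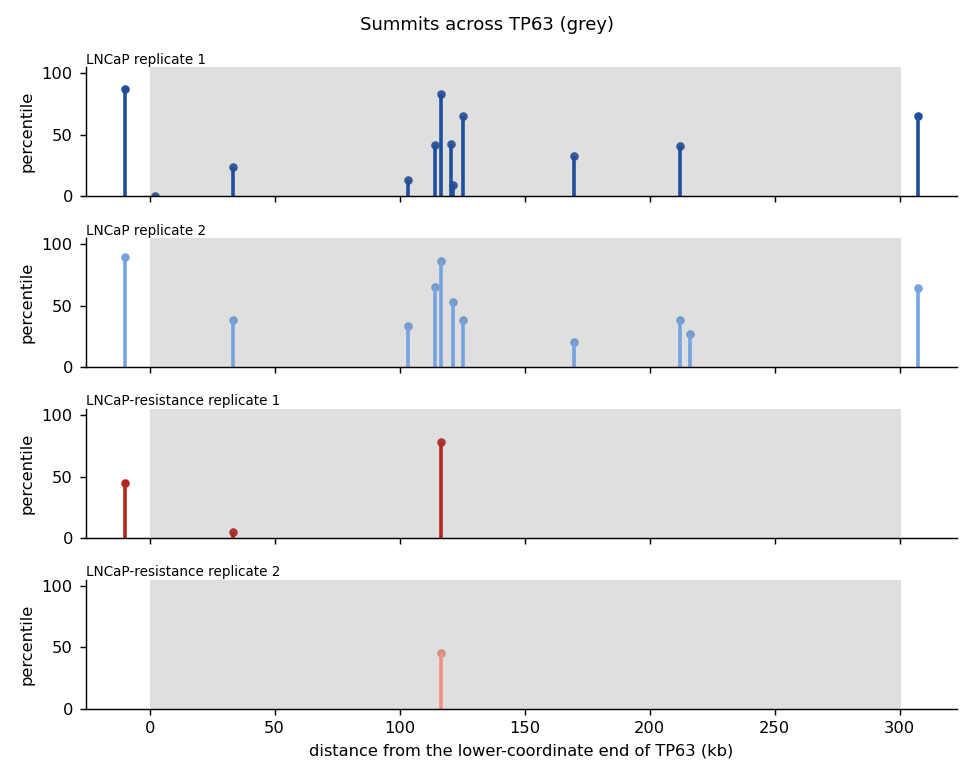
Percentile of the strongest summit of each region (vertical axis) against the distance from the lower-coordinate end of TP63 (horizontal axis, kb), with 1 panel per library and the gene shaded. The site at 116505 bp is present in all 4 panels, and the LNCaP panels hold 12 and 11 summits where the resistant panels hold 3 and 1.

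Among the basal keratins, the strong site of KRT14 (chr17:41582279-41586895) lay 2653 bp below the gene and scored 35.6 and 28.6 in LNCaP and 85.4 and 32.6 in resistant cells. These scores are not comparable between lists, and the percentiles of the site, given above, overlapped between the groups. A second site, 980 bp inside the gene, was LNCaP-only, at percentiles 34.3 and 40.6. KRT15 (chr17:41513745-41518890) had 1 LNCaP-only site, 2475 bp below the gene, at 37.65 and 15.8. The site of KRT17 (chr17:41619442-41624575) lay 3844 bp below the gene and was absent from resistant replicate 2 alone. Another, 277 bp above the gene, was in resistant replicate 1 alone, at percentile 45.2. The annotation table gives gene ends but no exons, so exons and introns were not told apart.

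The luminal windows held 17 and 18 summits in LNCaP and 12 and 9 in resistant cells, and the basal windows held 17 and 16 against 6 and 3. To allow for the length of the lists, these numbers were divided by the library's total. Luminal windows then took 0.145 and 0.168 of every 1000 summits in LNCaP and 0.169 and 0.197 in resistant cells. Basal windows took 0.145 and 0.149 in LNCaP and 0.0847 and 0.0658 in resistant cells. TP63 alone took 0.102 and 0.102 in LNCaP, with exact 95% binomial intervals of 0.0529 to 0.179 and 0.0512 to 0.183. In resistant cells it took 0.0423 and 0.0219, with intervals of 0.00873 to 0.124 and 0.000555 to 0.122. The intervals cover counting error only and overlap between the groups. The 4 basal keratins without TP63 took 0.0426 and 0.0466 in LNCaP and 0.0423 and 0.0438 in resistant cells. These rest on 5 and 5 summits in LNCaP and on 3 and 2 in resistant cells. The lower basal share was thus seen at TP63, but counts this small cannot place it there alone. A gene's share was lower in both resistant libraries at 18.6% of protein-coding genes and higher at 43.7%.

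Of 23 regions in luminal windows, 5 were LNCaP-only, 6 shared and 1 resistant-only, and the other 11 differed between replicates. Of 21 regions in basal windows, 9 were LNCaP-only, 2 shared and 0 resistant-only. The LNCaP-only share was thus 21.7% in luminal and 42.9% in basal windows, against 27.5% of all regions. It was 25% in the 8 regions of the basal keratins without TP63. Basal windows held 4.99 regions per 100 kb and luminal windows 14.02, where the median over protein-coding genes was 8.35. Without TP63, a long gene with 4.06 regions per 100 kb, basal windows held 7.94. With equal numbers of summits, luminal windows had 0 LNCaP-only, 2 resistant-only and 5 shared regions, and basal windows had 1, 0 and 2. In that setting 17.1% of all regions were LNCaP-only, 14.9% resistant-only and 26.8% shared.

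**Figure D4:**
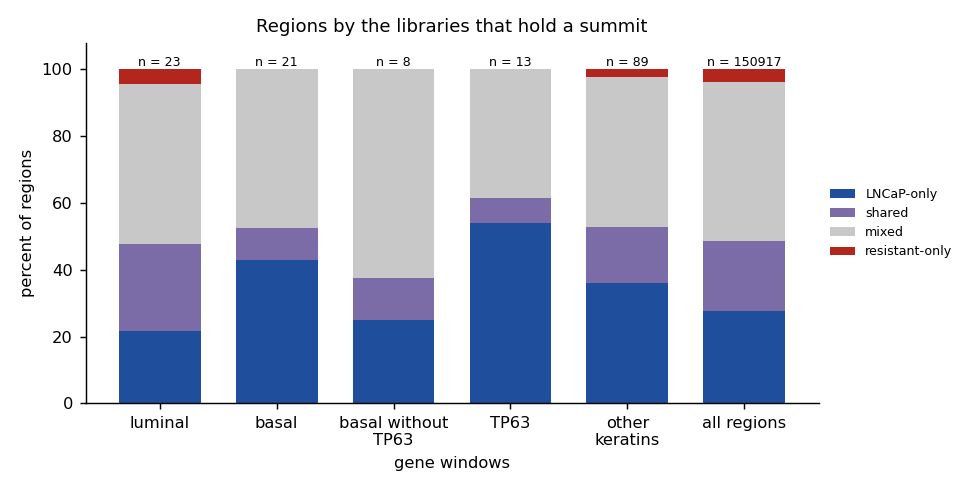
Percent of regions (vertical axis) by the libraries that hold a summit, for each set of gene windows (horizontal axis), with the number of regions above each bar; mixed means that the replicates of a group differed. LNCaP-only regions make up 53.8% at TP63, 42.9% in basal windows and 21.7% in luminal windows, against 27.5% of all regions.

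Most of the 47 other keratin genes had lower ranks in resistant cells. A summit was found near 41 of them in some library. Of these, 28 were lower in both resistant libraries, which is 68.3% against 41.1% of protein-coding genes, 2 were higher and 11 overlapped, with a median change of -34.6 points. At 18 of the 41 genes neither resistant library had a summit, and the reverse was found at 0 genes. Over all protein-coding genes with a summit, 4.92% had none in either resistant library and 1.38% none in either LNCaP library. Neighbouring keratins share windows, so these genes are not independent. As unique regions, 32 of 89 were LNCaP-only (36.0%), 2 resistant-only and 15 shared, against 27.5%, 3.84% and 21.1% of all regions. The 3 with the largest differences were type II keratins of chromosome 12. KRT73, a keratin of hair follicle sheaths, went from 93.7 and 84.5 in LNCaP to 0 in both resistant libraries, and KRT2, an epidermal keratin, from 88.9 and 83.0 to 0 in both. KRT79 went from 97.9 and 97.4 to 29.99 and 0. The 2 that were higher were KRT222, with 61.2 and 56.8 in LNCaP and 68.2 and 74.9 in resistant cells, and KRT86, a hair keratin, with 85.4 and 83.1 against 94.5 and 88.7. With equal numbers of summits, 11 of the other keratins were lower and 7 higher, where 18.5% of all protein-coding genes were lower and 48.7% higher. On chromosome 12, 16 of 22 genes with a summit were lower, and on chromosome 17, 12 of 19.

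**Figure D5:**
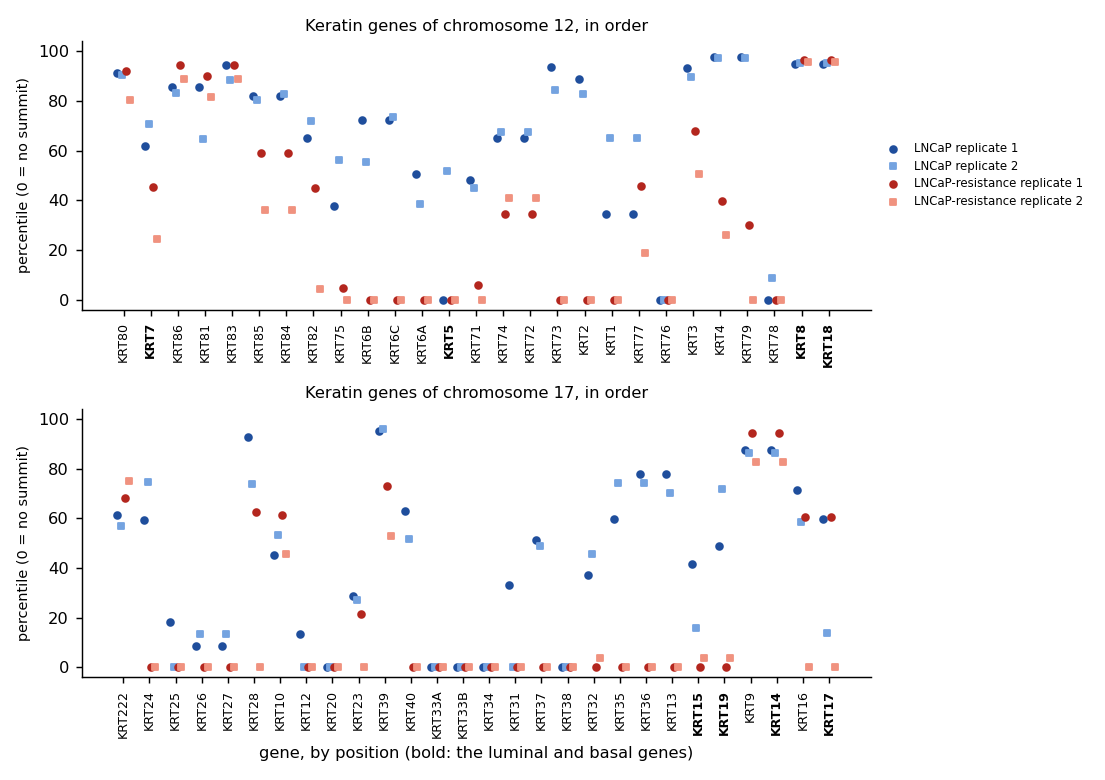
Percentile of the strongest summit (vertical axis, 0 where there was no summit) of the keratin genes in their order along chromosomes 12 and 17 (horizontal axis), with 1 point per library. KRT8 and KRT18 are at 94.8 or more at the end of the chromosome 12 cluster, whereas KRT73 and KRT2, in the same cluster, are at 0 in both resistant libraries.

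Keratin filaments are anchored to desmosomes and hemidesmosomes, and 18 of 19 genes of these junctions had a summit. Of these, 9 were lower in both resistant libraries (50%, against 41.1% of all), 2 higher and 7 overlapped, with a median change of -8.11 points. In lists of equal length, 4 were lower and 5 higher, where 18.5% of all protein-coding genes were lower and 48.7% higher. COL17A1, the hemidesmosomal collagen of basal cells, went from 84.4 and 77.4 in LNCaP to 45.6 and 19.5. PPL, which encodes periplakin, went from 79.9 and 72.6 to 58.8 and 0, and DSC2, a desmosomal cadherin, from 86.4 and 83.2 to 73.4 and 64.2. DST and JUP were higher by 0.551 and 0.234 points, with percentiles from 98.4 to 99.3. All 16 genes of a list of epithelial transcription factors, p63 targets and basal markers had a summit. Of these, 8 were lower (50%), 3 were higher (18.8%, against 16.7% of all) and 5 overlapped, with a median change of -3.32 points. In lists of equal length, 5 of the 16 were lower and 8 higher, beside the same 18.5% and 48.7% of all genes. TFAP2C, an epithelial transcription factor, went from 94.4 and 93.9 to 66.98 and 0.956, JAG2, a Notch ligand, from 67.3 and 71.8 to 37.6 and 26.2, and TRIM29, a marker of basal cells, from 98.2 and 98.9 to 83.4 and 52.9. GATA3, a luminal transcription factor in several epithelia, went from 33.8 and 33.5 to 77.2 and 65.1. S100A2 went from 69.9 and 84.1 to 97.7 and 91.8.

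By the smallest distance over the percentiles of the 4 libraries, GRHL2 (3.95 points) and TFAP2A (4.48) were among the genes of these lists most like KRT8. KRT3 (12.8 points) and KRT39 (13.3) were among those most like TP63. KRT39 had 95.2 and 96.0 in LNCaP and 72.9 and 52.9 in resistant cells.

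Processed pseudogenes with near-identical sequence can share reads with keratins. The annotation lists 52 pseudogenes of KRT8, 68 of KRT18, 8 of KRT17 and 5 of KRT19. A summit was found inside 5, 6, 0 and 1 of them in any library, so few of the copies were called. The part of shared reads in the values of the genes was not tested.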

How the data were processed

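ATAC-seq libraries of LNCaP (2) and LNCaP-resistance (2) cells were analysed. According to the submitters' processing notes, Bowtie2 2.2.5, SAMtools 1.6 and MACS2 2.2.6 were used with build hg38. Thresholds, duplicate removal and read shifting are not given in the sources used here. The authors deposited 1 summit list per library, called on that library alone, with a score that is a −log10 p-value or q-value. Each list starts just above 1.30, which is −log10 of 0.05. Between 45570 and 117131 summits per list lay on the main chromosomes. Depth is unknown.

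From these lists, percentiles within a library, regions (summits extended by 250 bp and merged) and gene windows (10 kb) were computed with Python 3.11.15, numpy 2.4.6 and pandas 2.3.3, on genes of RefSeq GRCh38.p14. The computation was tested on simulated lists. The 9 genes and all lists were chosen with earlier results of these data known. Text names every one of the 9 genes, the strongest and start-proximal sites, sites with the largest change, and at most 3 genes per direction of each other list. Strand was given for 3 of 9 genes, so other distances are from gene ends. Alternatives were windows of 3 and 25 kb, equal numbers of summits, scores from 10 upward, extensions of 100 and 500 bp, membership by 1 library, each library left out, and comparison within replicate numbers, which the labels also give as the batch. Across 18682 genes, the difference between replicates 1 and 2 in LNCaP had a correlation of -0.00485 with that in resistant cells. Some genes that these rules select are not reported here.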

Additional observations from a re-analysis of the deposited data

Results flagged for a closer look

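A summit inside KRT8P47, a pseudogene of KRT8 on chromosome 1 from 44103063 to 44104705, stood out because it lay outside the gene windows compared and was found in both resistant libraries and in no LNCaP library. It was at percentiles 84.7 and 66.3 in the resistant libraries, with a mean of 75.5. Of all regions, 3.84% were resistant-only.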

How the results depend on the processing

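The lists hold no counts, and weak sites may be missing from the shorter resistant lists. The cause of each shift was not tested. The luminal median change, -15.2 points, was -0.465 with windows of 3 kb, 0.182 with 25 kb and 5.23 with equal numbers of summits. In the last setting KRT7 (3.36), KRT15 (1.93) and KRT17 (19.4) also turned positive. The luminal median change was within the range given next when 1 library was left out. That range was -20.7 to -9.69 (without LNCaP-resistance replicate 2). The basal median change, -25.9 points, was 0 with windows of 3 kb or a score of at least 10. It was -27.1 with 25 kb and 1.93 with equal numbers of summits. When 1 library was left out, it was between -25.9 and -10.7 (without LNCaP-resistance replicate 2). The median percentile of the basal genes, taken per library, had a pooled SD of 28.6 between replicates. With 3 kb, 1 luminal gene was lower and 3 luminal regions were LNCaP-only. With 25 kb, 1 luminal gene was lower, 8 luminal and 14 basal regions were LNCaP-only and 16 were shared. With a score of at least 10, 1 basal gene was lower, 2 luminal and 1 basal regions were LNCaP-only, 0 were resistant-only and 5 shared. With equal numbers of summits, 0 luminal genes and 1 basal gene were lower, and 0 luminal and 1 basal regions were LNCaP-only and 2 resistant-only. With membership by at least 1 library, these were 10, 14 and 4, with 15 shared. When 1 library was left out, 2 to 4 basal genes were lower (4 without LNCaP-resistance replicate 1) and 2 to 4 of the 9 genes higher (4 without LNCaP-resistance replicate 2). The LNCaP-only regions then numbered 5 to 9 in luminal windows (9 without LNCaP replicate 1) and 9 to 12 in basal windows, the resistant-only regions 1 to 3 and the shared regions 8 to 13 (the highest of both without LNCaP-resistance replicate 2). With the replicate number as a replicate block, a direction had to hold within both pairs, and 2 luminal and 2 basal genes were lower and 2 of the 9 higher.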
